A study of Caenorhabditis elegans with 2 samples.

Results

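The spliced leader (SL) RNA genes, named sls-1 and sls-2, and the SmY RNA genes, named smy, of *Caenorhabditis elegans* were examined for binding of SNPC-4. They were taken by name from the annotation of the WBcel235 genome (ce11), which gave 42 genes of 46926: 12 sls-1, 18 sls-2 and 12 smy genes. SNPC-4 corresponds to the largest of the SNAPc subunits, a complex that binds upstream of small nuclear RNA (snRNA) genes. Its sites were mapped by chromatin immunoprecipitation and sequencing (ChIP-seq) in strain YL487, a transgenic line that stably carries SNPC-4 with GFP and FLAG fused to its C-terminus. Young adult hermaphrodites were collected whole 60 h after synchronization by bleaching and starvation at the first larval stage, so binding in single cell types or tissues cannot be told apart. The 2 biological replicates came from the same strain and form 1 group, and no untagged or untreated group was analysed here. The description names an anti-GFP antibody, whereas the labels enter snpc-4 as the antibody.

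In trans-splicing, the spliceosome joins a short leader from an SL RNA to the 5' end of a separate messenger RNA. The leader SL1, encoded by sls-1, is added to the first or only message of many genes, and SL2 and its variants, encoded by sls-2, are added mainly to downstream messages of operons. SL RNAs are made as small ribonucleoproteins that carry Sm proteins, like the snRNAs of the spliceosome, but they are used up in the reaction. SmY RNAs are short nematode RNAs that also bind Sm proteins and are found with trans-splicing factors.

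5 genes are shown to let the families be told apart, read from the RefSeq copy of WBcel235 with each gene 5' to 3'. Capitals mark first the leader, where the gene holds one, and then the letters AATTTTTGG, AATTTTTG, AATTTTGG or AATTTTG, the kind of run that Sm proteins bind. The 10 full-length sls-1 genes held 1 leader of 22 bases, with no difference between copies. The 14 sls-2 genes from which sequence was read here held 10 different leaders of 21 to 23 bases. One leader was shared by sls-2.1, sls-2.2 and sls-2.3, another by sls-2.10 and sls-2.11, and another by sls-2.12 and sls-2.13. SmY RNAs donate no leader.
sls-1.2 gene (chrV:17131064-17131161, minus strand): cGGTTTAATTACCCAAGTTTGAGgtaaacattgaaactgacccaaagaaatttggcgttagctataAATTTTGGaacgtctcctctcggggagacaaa
sls-2.1 gene (chrII:5844865-5844974, plus strand): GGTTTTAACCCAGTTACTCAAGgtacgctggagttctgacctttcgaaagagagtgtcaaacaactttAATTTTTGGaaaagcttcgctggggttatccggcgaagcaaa
sls-2.8 gene (chrIII:12250465-12250575, plus strand): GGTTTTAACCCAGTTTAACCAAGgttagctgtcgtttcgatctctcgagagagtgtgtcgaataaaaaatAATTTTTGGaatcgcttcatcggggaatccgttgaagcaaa
sls-2.12 gene (chrIV:5261913-5262022, plus strand): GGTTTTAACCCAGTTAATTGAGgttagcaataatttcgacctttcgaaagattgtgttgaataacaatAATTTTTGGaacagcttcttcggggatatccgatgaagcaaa
smy-3 gene (chrV:14092572-14092651, plus strand): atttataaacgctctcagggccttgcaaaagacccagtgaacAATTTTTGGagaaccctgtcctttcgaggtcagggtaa

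The upstream sequences below, of 80 bases each and ending 1 base before the annotated start, show the stretch where most summits lay. Capitals mark a 15-base element: C, then C or T, then C, any 7 bases, G, any 3 bases, G. Its form was chosen after these sequences and the binding values had been seen, so its presence in the genes is a description. The sls-1 sequence stands for the 9 full-length copies on the minus strand, and the sls-2 sequences run from high to low binding.
sls-1.2 upstream (chrV:17131162-17131241, minus strand): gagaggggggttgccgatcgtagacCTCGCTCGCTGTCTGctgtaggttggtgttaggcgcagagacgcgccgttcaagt
sls-2.1 upstream (chrII:5844785-5844864, plus strand): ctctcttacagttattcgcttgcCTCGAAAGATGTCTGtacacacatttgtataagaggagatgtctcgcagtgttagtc
sls-2.2 upstream (chrII:5543518-5543597, plus strand): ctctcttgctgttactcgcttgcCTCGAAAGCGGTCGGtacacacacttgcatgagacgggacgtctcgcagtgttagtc
sls-2.8 upstream (chrIII:12250385-12250464, plus strand): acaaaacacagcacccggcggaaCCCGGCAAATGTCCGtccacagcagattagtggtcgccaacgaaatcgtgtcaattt
sls-2.16 upstream (chrIII:7141311-7141390, plus strand): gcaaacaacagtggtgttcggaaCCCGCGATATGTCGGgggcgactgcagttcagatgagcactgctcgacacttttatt
sls-2.10 upstream (chrIV:9130830-9130909, minus strand): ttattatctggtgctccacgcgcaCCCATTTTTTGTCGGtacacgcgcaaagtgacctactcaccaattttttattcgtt
sls-2.12 upstream (chrIV:5261833-5261912, plus strand): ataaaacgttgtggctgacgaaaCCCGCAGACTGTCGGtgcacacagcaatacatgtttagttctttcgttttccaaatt

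On the gene's own strand within 100 bases upstream, the element was found at 12 of 12 sls-1, 18 of 18 sls-2 and 12 of 12 smy genes, and at 3.82% of all annotated genes. It started 57 bases before 15 of the sls-2 genes, 56 bases before sls-2.10 and sls-2.11 and 22 bases before sls-2.6. At the smy genes it started 51 to 60 bases before the gene. At the sls-1 genes it started 55 bases before the 10 full-length copies, and 63 bases before the annotated starts of the short copies, where its letters differed. At 51 to 60 bases before the start it was present in 39 of the 42 genes and in 0.69% of all genes. This range equals that of the smy genes, so their full count within it was fixed beforehand and the contrast is a description. The share at the other snRNA genes was not counted. A shorter word, TGTCGG, was searched on both strands and overlaps the end of the element in many genes. It had been seen in earlier results of these data, so its presence too is a description. TGTCGG was within 100 bases upstream of 12 sls-2 genes, 1 smy gene and no sls-1 gene, against 1.98% of all genes. GGCTGT, its letters in reverse order, was there in 10 sls-1 genes and in no sls-2 or smy gene, against 1.3% of all genes.

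SNPC-4 sites were found within 300 bp of every sls-2 gene and every smy gene, and of no sls-1 gene. Little of the sequence around the sls-1 genes is unique, as given below. Their lack of sites therefore cannot be told apart from reads that could not be placed. A gene was counted as bound when a summit, the highest point of a peak, lay within 300 bp of its 5' end in the deposited list of 4675 reproducible peaks. This is the list of pooled peaks past the authors' irreproducible discovery rate (IDR) threshold. By this measure 18 of 18 sls-2 genes were bound (100%, exact binomial 95% interval 81.5 to 100%), 12 of 12 smy genes (100%, 73.5 to 100%) and 0 of 12 sls-1 genes (0%, 0 to 26.5%). In total 30 of the 42 genes were bound (71.4%, 55.4 to 84.3%), beside 11.6% of all annotated genes, 73% of the 89 other snRNA genes and 6.36% of protein-coding genes. The share of all 42 was thus near that of the other snRNA genes, and the families stood on either side of it. The intervals cover counting error only, and neighbouring genes of a family share sequence and, in 12 cases, a peak region. Each of the 30 genes had its own summit, which was nearer to it than to any other annotated gene start in 28 cases. The exceptions were sls-2.6, whose summit lay nearer to hgo-1, and smy-12.

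**Figure D1:**
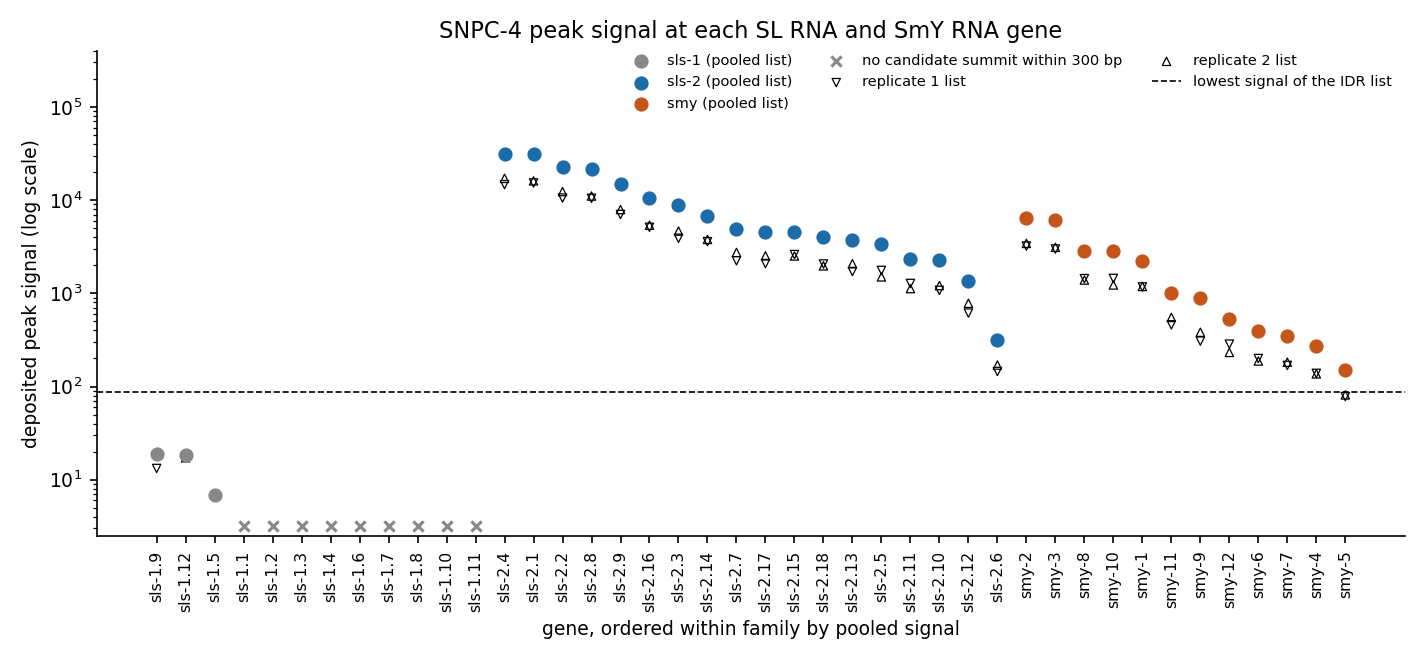
Deposited peak signal (log axis) at each of the 42 genes, grouped by family, for the pooled list (filled circles) and the 2 replicate lists (open triangles). Crosses mark genes with no candidate summit within 300 bp, and the dashed line is the lowest pooled signal of the IDR list (87.3). The 18 sls-2 and 12 smy genes lie above the line in the pooled list and the 3 sls-1 genes with a candidate lie below it. Signals are read within a list, since the lists are not stated to share a scale.

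The strongest sites of the sls-2 family were among the strongest in the genome. The deposited signal, the authors' measure of peak strength, had a median of 4754 at sls-2 genes (313 to 31586), of 953 at smy genes (149 to 6399.7), and of 1505 at the 65 bound other snRNA genes. The median over all IDR peaks was 164.6. In rank, 14 of 18 sls-2 genes and 2 of 12 smy genes were among the 100 strongest of the 30000 pooled regions. The median rank was 68 at sls-2 (2 to 1205) and 365 at smy (48 to 2612), and the ranges overlapped. The order of the families was the same in each replicate list: the median rank was 69.5 at sls-2 and 488.5 at smy in replicate 1, and 63 and 383 in replicate 2. With 1 group of worms there is no test of a difference between conditions, and genes are not replicates, so the families are compared as values.

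At the top of the sls-2 family, sls-2.4 had a signal of 14647 in replicate 1, 17107 in replicate 2 and 31586 in the pooled list, where it ranked 2. sls-2.1, an SL2 gene whose element and leader are shown above, had signals of 15266 and 16090.0 in the replicates and 31242 in the pool, rank 4. For sls-2.2 the values were 10508, 12333 and 22867, rank 7. These 3 genes held ranks of 2 to 8 in replicate 1 and of 2 to 5 in replicate 2. sls-2.8, which encodes a leader of 23 bases found in no other gene read here, had signals of 10447 and 11054 in the replicates and 21399.8 in the pool, rank 10. It ranked 9 and 10 in replicates 1 and 2.

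At the lower end, sls-2.10 had signals of 1074 and 1209.5 in the replicates and 2282 in the pool, rank 151. sls-2.12 had 613 and 782, and 1368 in the pool, rank 254. Both carry the TGTCGG word and an element at the usual place. By the first 3 letters of the element, the 4 genes with CTC (sls-2.1, sls-2.2, sls-2.3 and sls-2.4) had pooled signals of 8844 to 31586, ranks 2 to 42. The 14 with CCC had 313 to 21399.8, ranks 10 to 1205. The groups overlapped, the split was made after the values were seen, and it was not tested. By the last 5 letters, genes with GTCGG ran from 1368 to 31586 and those with GTCTG from 8844 to 31242. Genes that encode the same leader also differed: sls-2.3 had a pooled signal of 8844, below sls-2.1 and sls-2.2, whereas sls-2.10 and sls-2.11 were close at 2282 and 2360.5.

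The weakest sls-2 site was at sls-2.6, with signals of 145 and 170 in the replicates and 313 in the pool, rank 1205. Its summit, 283 bp upstream, was the one closest to the 300 bp limit among the bound genes, and lay 88 bp from the start of hgo-1, a protein-coding gene. sls-2.6 was also the gene whose element stood 22 bases from the start. The other 11 sls-2 genes had pooled signals between 2360.5 (sls-2.11) and 14871 (sls-2.9), at ranks 23 to 146.

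Among the smy genes, smy-2 had a signal of 3210 in replicate 1, 3432 in replicate 2 and 6399.7 in the pool, rank 48. For smy-3 the values were 2984, 3116 and 6058, rank 52. smy-8 and smy-10, neighbours in 1 peak region, were close at pooled signals of 2847 and 2814, ranks 120 and 121. In the replicates smy-8 had 1437 and 1388, and smy-10 had 1444 and 1228. The lowest were smy-7, with 168, 182 and 345 pooled (rank 1097), smy-4, with 138, 137 and 271 (rank 1406), and smy-5, with 77.9, 81.3 and 149 (rank 2612). The other 5 genes lay between 389.5 (smy-6) and 2228 (smy-1) in the pool. All 12 were present in both replicate lists, with the ranks of a gene in the 2 lists at most 1.31-fold apart, and at most 2.0-fold apart at sls-2 genes.

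The smy genes are split here by 1 base of the element, and signals were mostly higher in the group with C. The upstream sequences below are in order of pooled signal within the 2 groups, first 5 genes with C and then 4 with A at the middle of the last 5 letters of the capitals.
smy-2 upstream (chrIV:9511467-9511546, minus strand): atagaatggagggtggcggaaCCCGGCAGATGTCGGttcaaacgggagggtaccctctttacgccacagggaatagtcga
smy-3 upstream (chrV:14092492-14092571, plus strand): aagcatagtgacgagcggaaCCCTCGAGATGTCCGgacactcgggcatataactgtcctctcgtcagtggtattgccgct
smy-8 upstream (chrIV:13600767-13600846, plus strand): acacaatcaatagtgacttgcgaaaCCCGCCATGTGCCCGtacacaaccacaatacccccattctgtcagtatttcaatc
smy-10 upstream (chrIV:13601556-13601635, plus strand): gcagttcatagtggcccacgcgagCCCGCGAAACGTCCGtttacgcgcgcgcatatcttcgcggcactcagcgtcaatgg
smy-9 upstream (chrIV:13602122-13602201, plus strand): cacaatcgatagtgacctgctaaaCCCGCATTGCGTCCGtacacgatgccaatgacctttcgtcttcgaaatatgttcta
smy-11 upstream (chrIV:14863907-14863986, plus strand): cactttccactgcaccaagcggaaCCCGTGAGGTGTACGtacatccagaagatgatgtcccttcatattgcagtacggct
smy-7 upstream (chrIV:6460765-6460844, minus strand): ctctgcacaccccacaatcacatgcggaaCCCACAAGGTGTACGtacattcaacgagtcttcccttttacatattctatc
smy-4 upstream (chrV:14094700-14094779, minus strand): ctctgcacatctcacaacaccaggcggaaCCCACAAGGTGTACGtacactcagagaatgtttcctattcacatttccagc
smy-5 upstream (chrV:14096466-14096545, minus strand): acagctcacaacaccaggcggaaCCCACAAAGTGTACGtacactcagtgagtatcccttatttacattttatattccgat
The 6 genes that end in GTACG (smy-4, smy-5, smy-6, smy-7, smy-11 and smy-12) had pooled signals of 149 to 1005, median 367, at ranks 347 to 2612. The 6 genes with a C at that place (smy-1, smy-2, smy-3, smy-8, smy-9 and smy-10) had signals of 900.0 to 6399.7, median 2830.1, at ranks 48 to 383. The groups overlapped through smy-9 (900.0) and smy-11 (1005). In replicate 1 the ranks were 389 to 2841 against 50 to 588, and in replicate 2 they were 316 to 2569 against 48 to 450. This grouping was found after the values were seen and was not tested. Of the genes with A, 5 lie inside the span of a protein-coding gene (all but smy-7), as do 2 of those with C (smy-1 and smy-2), and smy-4, smy-5 and smy-6 stand side by side on chromosome V. The genes with A also share a longer ending of the element, GTGTACG, whereas the bases before that place vary among the genes with C. The single base therefore cannot be told apart from the longer shared sequence. In both groups some summits lay away from the element, 141 bp from its middle at smy-1 and 57 bp at smy-9 and smy-12. The part of these features in the difference was not tested.

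**Figure D2:**
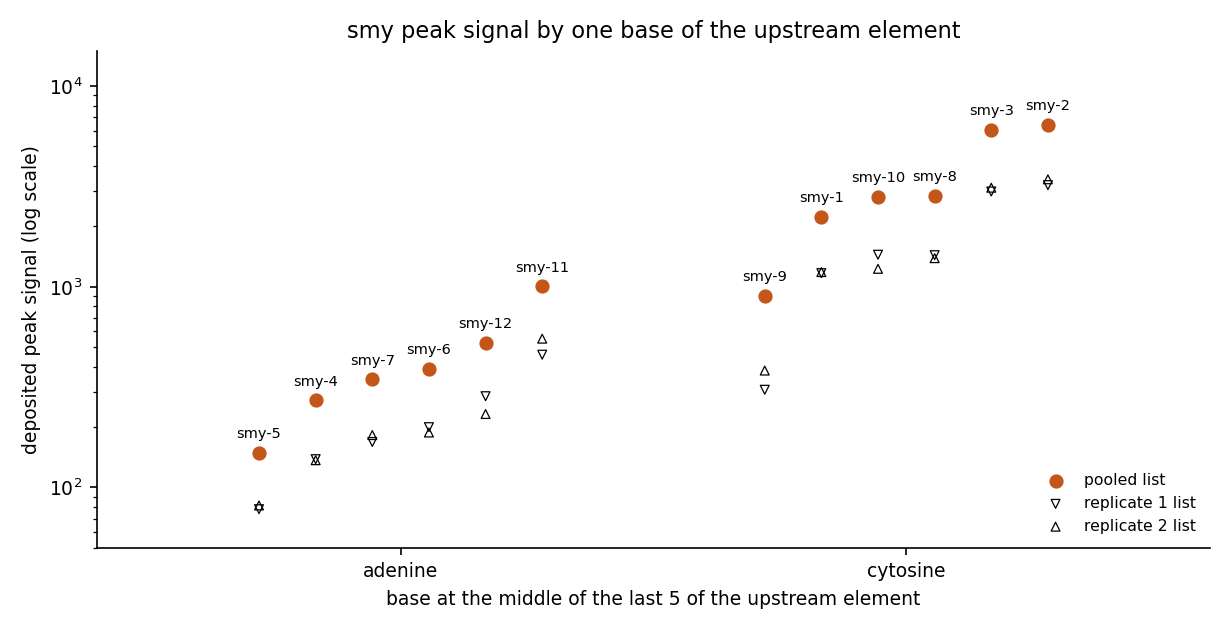
Deposited peak signal (log axis) of the 12 smy genes, split by the base at the middle of the last 5 bases of the upstream element, in the pooled list (filled circles) and the replicate lists (open triangles). The 6 genes with adenine run from 149 to 1005 in the pooled list and the 6 with cytosine from 900.0 to 6399.7, with smy-11 above smy-9.

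Summits lay just upstream of the sls-2 genes and less regularly around the smy genes. All 18 sls-2 summits were upstream, at a median offset of −43.5 bp (−283 to −16 bp), and 12 of them lay 30 to 60 bp upstream. The smy summits had a median offset of −28.5 bp, from 94 bp upstream (smy-5) to 91 bp downstream (smy-1), with 9 of 12 upstream and 4 at 30 to 60 bp upstream. At the other snRNA genes the median was −34 bp. Measured from the middle of the element, the sls-2 summits lay a median of 6.5 bp towards the gene, and 13 of 18 were within 20 bp of it. For smy the median was 19 bp towards the gene and 4 of 12 were within 20 bp.

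The 2 replicates placed the summits at nearly the same base at sls-2 genes. The distance between the replicate summits had a median of 4.5 bp at sls-2 (at most 22 bp) and 13.5 bp at smy (at most 43 bp). At sls-2.1 the summit was 47 bp upstream in replicate 1, in replicate 2 and in the pool. At smy-5, the weakest site, it was 90 bp upstream in replicate 1 and 47 bp in replicate 2. The 3 smy genes with a pooled summit inside the gene or past it were smy-1, smy-9 (8 bp) and smy-12 (9 bp). In the replicate lists the smy-9 summit was upstream, at 18 and 29 bp. The smy-12 summit was 7 bp from the start of a piRNA gene, 21ur-458.

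**Figure D3:**
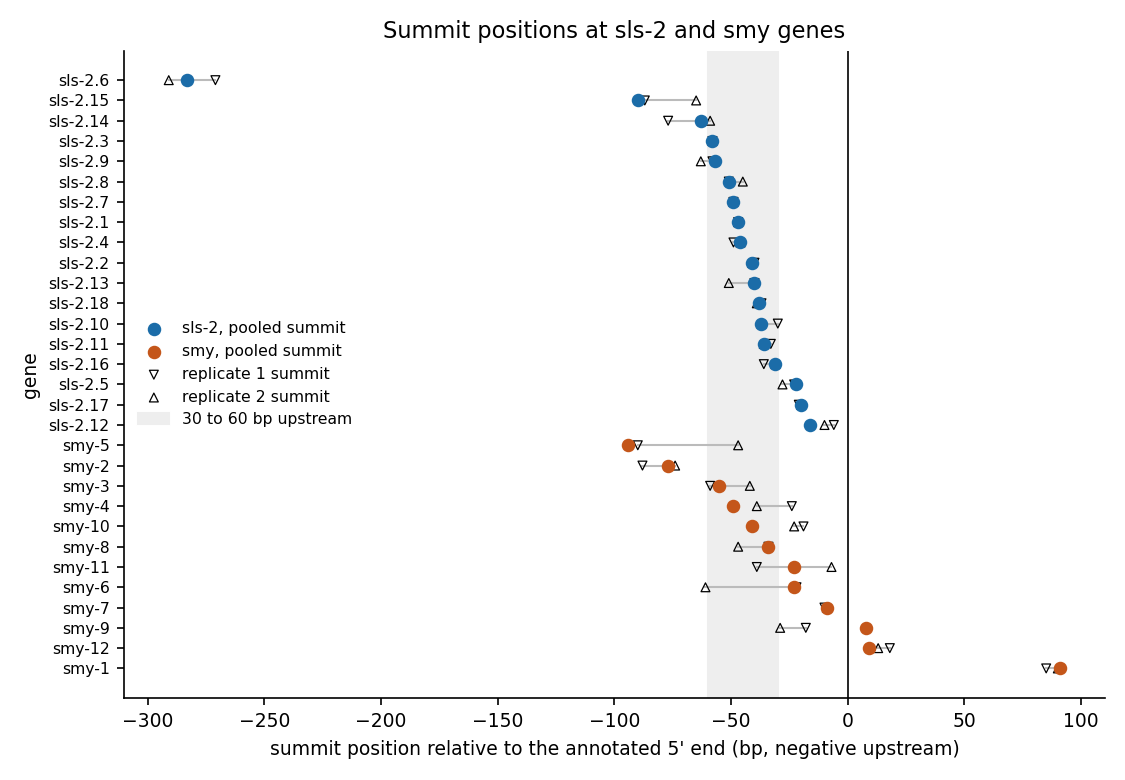
Position of the summit relative to the annotated 5' end in bp (negative upstream) for the 30 bound genes, in the pooled list (filled circles) and in replicates 1 and 2 (triangles joined by a line). The shaded band spans 30 to 60 bp upstream and holds 12 of 18 sls-2 and 4 of 12 smy pooled summits, and sls-2.6 stands apart at 283 bp.

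Some peak regions covered several genes. sls-2.2 and sls-2.3, which point towards each other from starts 675 bp apart, lay in 1 region of 1773 bp with 2 summits, and sls-2.14 and sls-2.15 in 1 of 1614 bp. sls-2.5, sls-2.16 and sls-2.18, all inside the glutamate receptor gene glr-2, lay in a region of 2668 bp with 4 summits. smy-1 and smy-2 lay in a region of 1326 bp, and smy-8, smy-9 and smy-10 in 1 of 2158 bp with 4 summits. How far reads of one gene add to the signal of its neighbour was not tested.

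Inside the span of protein-coding genes lay 7 of 18 sls-2 genes and 7 of 12 smy genes. The pooled signal had a median of 4049.7 at the 7 sls-2 genes inside (313 to 10473) and of 8844 at the 11 outside (1368 to 31586). For smy it was 525 at the 7 inside (149 to 6399.7) and 2814 at the 5 outside (345 to 6058). In both families the ranges overlapped. By chromosome, the sls-2 genes were 4 on I, 3 on II, 6 on III and 5 on IV, with median signals of 9906, 22867, 5656 and 2360.5. The 8 smy genes on IV had a median of 1617 and the 4 on V one of 330.4. The regions of chromosome IV from 4.5 to 7 Mb and from 13.5 to 17.2 Mb hold most piRNA genes, which SNPC-4 is also known to bind. The 3 sls-2 genes there had signals of 1368 to 4567, against 313 to 31586 at the 15 elsewhere, and the 6 smy genes there 345 to 2847, against 149 to 6399.7 at the 6 elsewhere.

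The sls-1 genes, which encode SL1, stand in a tandem array with the genes of 5S ribosomal RNA on chromosome V (17118154 to 17132107, 13954 bp). The array held 12 sls-1 copies, 11 of them on the minus strand at a median spacing of 976 bp, and 12 5S genes on the plus strand. The copies sls-1.1 and sls-1.5 were 68 bp long and lacked the leader, and the other 10 were 98 bp long. Any pooled candidate region, of which there were 30000, had its summit within 300 bp of 38.7% of all annotated genes. At sls-1 genes the exact binomial 95% interval of this share was 5.5 to 57.2%, which includes that of all genes. The copies are nearly identical in sequence and not independent, so the interval cannot show whether the family differs from all genes. The share rests on a candidate at 3 of the 12 sls-1 genes. These were sls-1.9 (109 bp downstream, signal 19.0, rank 18420), sls-1.12 (108 bp upstream, 18.6, rank 18603) and sls-1.5 (245 bp upstream, 6.9, rank 28055). Replicate 1 had a candidate at sls-1.9 alone (signal 13.2, rank 17786) and replicate 2 at sls-1.12 alone (signal 17.2, rank 13922). The other 9 genes, sls-1.1 to sls-1.4, sls-1.6 to sls-1.8, sls-1.10 and sls-1.11, had none in any of the 3 lists.

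The array was not without peaks. Of its 8 pooled candidates 2 were IDR peaks. The stronger had a signal of 584, rank 586, and ranked 559 and 542 in the replicates. Its summit lay 325 bp upstream of sls-1.4, the nearest outside the 300 bp limit, and 152 bp past the start of a 5S gene. The other had a signal of 131.9, rank 2984, with replicate ranks of 4530 and 2570, 220 bp upstream of another 5S gene.

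Little of the sequence around the sls-1 genes was unique. Of all 31-base words within 300 bp of a 5' end, a median of 0.0% occurred once in the genome at sls-1 genes (0 to 21.7%), against 90.0% at sls-2 (60.6 to 100%) and 100% at smy genes (92.8 to 100%). A word at an sls-1 gene had a median of 12 copies, and over the whole array 7.0% of words were unique. In the 2 IDR peaks of the array the shares were 27.0% for the stronger and 29.1% for the other. The other 6 pooled candidates ran from 0.5% (signal 19.0) to 32.7% (signal 5.4), and 1 with 31.1% had a signal of 65.9, so candidates with shares as high were also outside the IDR list. Among the genes outside the 3 families, 773 had under 25% unique words, and 8 of them were bound (1.03%), against 11.72% of the 44069 genes with 75% or more. Any pooled candidate was found at 5.69% of the former and 39.54% of the latter. The other snRNA genes had a median of 80.6%, and of the 4 with under 25% none was bound and 1 had a pooled candidate. Of those with 25 to 75%, 28 of 31 were bound (90.32%), and of those with 75% or more, 37 of 54 (68.52%). Of the 5 tRNA genes with under 25%, 1 was bound. How the authors treated reads that map to several places was not given in the sources used here, so the absence of sls-1 peaks cannot be told apart from reads that could not be placed. Within the sls-2 family, the 6 genes with the lowest shares (60.6 to 84.4%: sls-2.12, sls-2.17, sls-2.5, sls-2.18, sls-2.10 and sls-2.11) had pooled signals of 1368 to 4567, all below the family's median of 4754. sls-2.6, the weakest, had a share of 98.4%. Among the smy genes, the shares were 92.8 to 100% in the 6 with A in the element and 100% in the 6 with C. The part of repeated sequence in the signals of these 2 families was not tested.

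**Figure D4:**
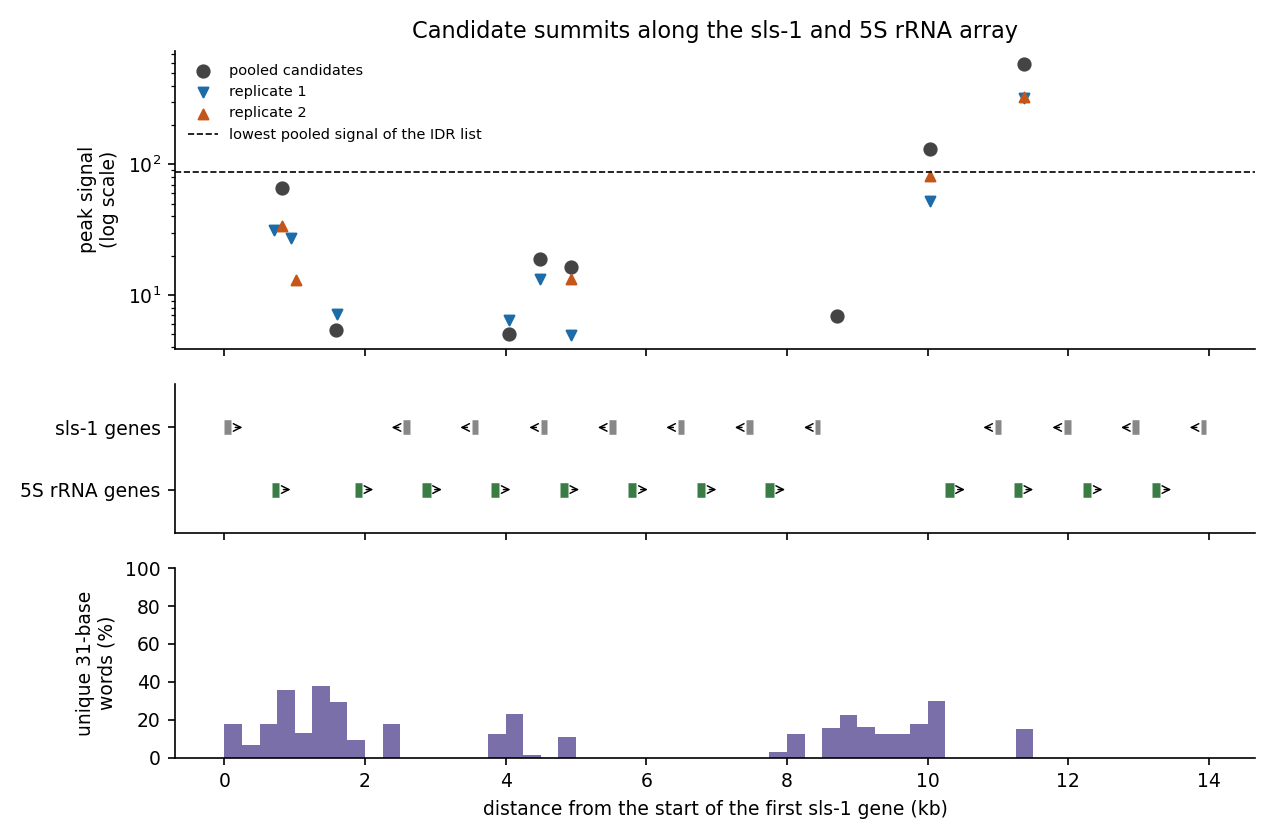
Candidate summits (top, signal on a log axis, for the pooled and replicate lists), genes (middle, arrows give the strand) and share of unique 31-base words in bins (bottom) along the sls-1 and 5S array, by distance in kb from its first base. The 2 summits above the dashed line (the lowest IDR signal, 87.3) lie between sls-1 genes.

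**Figure D5:**
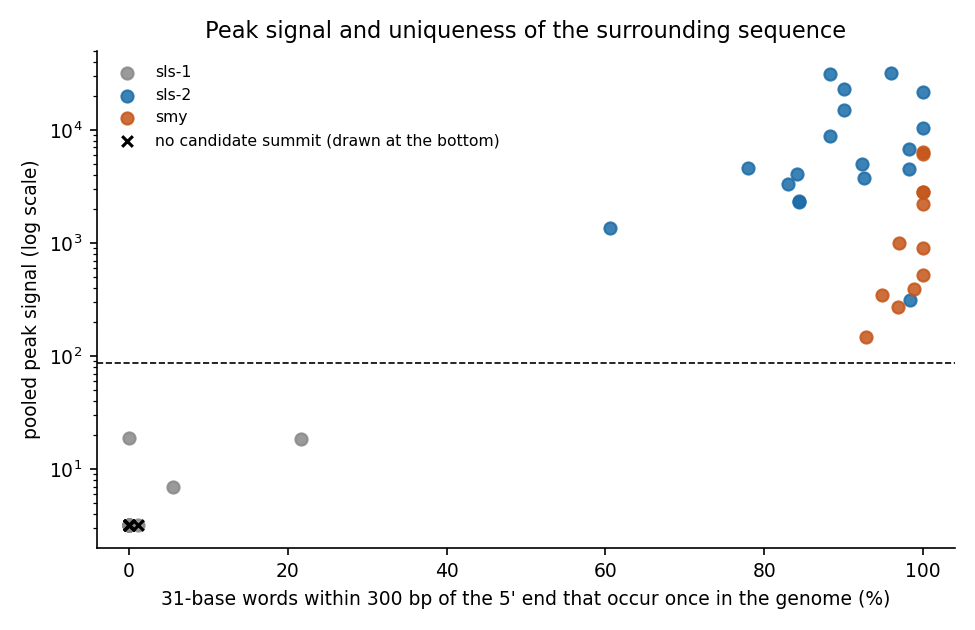
Pooled peak signal (log axis) against the percentage of 31-base words within 300 bp of the 5' end that occur once in the genome, for all 42 genes, with the lowest IDR signal as a dashed line. All 12 sls-1 genes lie at or under 21.7%, where the 3 with a candidate are below the line and the 9 without one are drawn as crosses at the bottom, and all sls-2 and smy genes at 60.6% or more and above it.

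Genes for proteins of trans-splicing were examined in the same way. The list held 11 genes: sna-1, sna-2 and sut-1, whose products bind SL or SmY ribonucleoproteins, cpf-2, a 3' end cleavage factor, and the Sm protein genes snr-1 to snr-7. An IDR summit lay within 300 bp of 2 of the 11, beside 6.36% of protein-coding genes. With so few genes, the count cannot show whether the listed genes are bound more or less often than protein-coding genes as a whole. At cpf-2 it was 128 bp upstream with a signal of 100.2, rank 4000, and ranks of 5600 and 4687 in the replicates. At snr-3 it was at −238 bp with a signal of 143.8, rank 2720, and ranks of 3399 and 3080, but it lay nearer to the start of rsp-5, at 166 bp. Both signals were below that of smy-5 (149), the weakest of the 30 bound SL and SmY RNA genes. The count was 1 at a window of 150 bp and 5 at 500 bp, where the share of protein-coding genes was not counted.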

How the data were processed

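ChIP-seq of tagged SNPC-4 was done in 2 biological replicates, per the labels. The authors deposited lists of 30000 candidate regions per replicate and for both pooled, and the 4675 pooled regions past the IDR threshold, in ce11. The lists in ce10 were not used. The deposited signal of each region is the authors' measure of strength, on an unstated scale, and was used to rank regions within a list. The deposited −log10 q-value was the same in all IDR peaks and was not used. Summits come from the deposited offset within the region. The caller and aligner were not given in the sources used here, and depth per sample is unknown.

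Genes came from Ensembl release 115 and symbols from RefSeq, matched by position for 42 of 42 genes. sls-2.19, a pseudogene by RefSeq symbol alone, was an alternative. The nearest summit within 300 bp of each 5' end was taken in every list, and words of 31 bases were counted on both strands of the RefSeq genome. The assignment of summits and the word counts were tested on simulated data. Shares have exact binomial 95% intervals. Named with values were the 4 strongest and 3 weakest bound genes per family, genes without an IDR summit, those nearest the 300 bp limit, and trans-splicing protein genes with a summit; other genes were added where a sequence feature or neighbour is described. The members and lists were chosen with earlier results of these data known. Python 3.11.15, numpy 2.4.6, pandas 2.3.3, scipy 1.17.1 and matplotlib 3.10.9 were used.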

Additional observations from a re-analysis of the deposited data

How the results depend on the processing

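The bound counts of sls-2 and smy stayed within 1.5 times under every alternative run: windows of 150 and 500 bp, the summit of highest signal, the stronger 50% of IDR peaks, the nearest annotated start only, RefSeq symbols, an IDR region over the 5' end, and the 4675 strongest regions of either replicate list. The sls-1 count was 1 at 500 bp, where sls-1.4 came within the window. The sls-2 median signal was 4942 at 150 bp, for the nearest start only and without sls-2.6 (the last chosen after seeing the data), and 4567 with RefSeq symbols. In these 4 settings the sls-2 median offset was −41 bp. Between single replicate lists the sls-2 median rank ranged from 63 to 69.5, the sls-2 median offset from −45.5 to −43.5 bp and the smy median rank from 383 to 488.5. The count of trans-splicing protein genes was 1 at 150 bp and 5 at 500 bp. With words of 25 bases the unique shares were 0.0%, 88.2% and 99.3% at sls-1, sls-2 and smy. In all, 70 values stayed within these limits or the spread between the replicates and 14 moved beyond them. For median signals the spread came from the replicate lists, which are not stated to share the scale of the pool. Ranks and offsets of the single replicate lists were judged by their own spread. The tally is therefore not a measure of robustness. No paired analysis was possible because both replicates belong to 1 group. Depth is unknown, so what it limits cannot be given.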

Other observations

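The pseudogene sls-2.19, which only the RefSeq symbols place among the sls-2 genes, had an IDR summit 14 bp downstream of its annotated start, with a signal of 2429, rank 142, and replicate ranks of 158 and 128. Its upstream 80 bases hold the same 15-base element as those of sls-2.12, sls-2.13 and sls-2.17, which had signals of 1368, 3748.9 and 4567. The Sm letters searched were found in 12 of 12 sls-1, 17 of 18 sls-2 and 11 of 12 smy genes. The forms AATTTTGG and AATTTTG were not among the letters first planned. All sls-1 genes matched through AATTTTGG alone, and sls-2.5, sls-2.10, sls-2.11 and sls-2.18 through one of these added forms. How often the letters occur in other genes was not counted, so these counts are a description. The exceptions were sls-2.2, which had a high signal (22867), and smy-6 (389.5), so bound genes with and without these letters were found.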
